A study of Mus musculus with 10 samples.

Results

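The last 2 days of a reprogramming course, from day 5 (D5) to day 7 (D7) in the induction medium, were compared in 4 RNA-seq libraries of 10 in the series, 2 per day. The starting cells were primary fibroblasts of E13.5 mouse embryos, which are cells of the connective tissue, at passage 2. The embryos came from CBA/CaJ × C57BL/6J males with an Oct4-GFP transgenic allele and 129S4/SvJaeJ females. Every group, D0 included, had been infected for 48 hours with retroviruses carrying Jdp2, Sall4, Esrrb and Glis1, after which the cells were kept in iCD3 medium for 0, 1, 3, 5 or 7 days. The labels describe unsorted cultures, so in each library fewer cells of a type and less RNA per cell cannot be told apart, and the reads of a delivered factor and of its own gene cannot be told apart either. The series text gives 2 independent experiments, and the replicate number was used as a block. The labels do not tie libraries to cultures, and the spread behind each p-value may therefore be partly technical.

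Reprogramming turns a somatic cell into a pluripotent one, a cell able to form all tissues of the embryo. Fibroblast genes for matrix and contraction are shut down first, and the pluripotency network around Oct4 (Pou5f1), Sox2 and Nanog is switched on late and keeps itself active. Embryonic stem cells and late reprogramming cells can also transcribe germline genes and, in rare cells, genes of the 2-cell embryo.

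The D5 libraries held 3952508 and 1329377 estimated counts (replicates 1 and 2) and the D7 libraries 4335931 and 1428598. A level is given in CPM, the count scaled by library size with TMM, on which 3 counts stood for 0.653 to 2.32 CPM in these libraries. The precision for low genes was poorer in replicate 2. The ribosomal RNA gene CT010467.1 made up 0.8% of D7 replicate 1 and at most 0.14% of any other library. Fibroblast transcripts were far below their starting level: Col1a1, the main chain of type I collagen, was at 149 and 216 CPM at D5 against 3933 and 5530 CPM at D0.

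The D5 replicates stood apart from each other more than D5 and D7 of replicate 1 did. Of 12752 genes tested, 3149 (24.7%) differed at least 2-fold, on the CPM + 2 scale, between the D5 libraries, 427 (3.35%) between D5 and D7 of replicate 1, and 2901 (22.7%) between D5 and D7 of replicate 2. The D7 libraries differed from each other at 958 genes (7.51%). D5 replicate 1 thus lay close to D7, and most 2-fold differences of the last step were in replicate 2, whose libraries were also the shallower ones. The labels were taken as given: whether D5 replicate 1 was ahead of D5 replicate 2, was prepared differently or carries a wrong label cannot be told apart from these files. Implied fragment lengths also split by replicate number, at 136 to 159 bases in replicate 1 and 199 to 204 in replicate 2. All D5 values, and the counts of called genes with and without each D5 library, carry that limit.

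Few genes passed the test in the last step. With edgeR's quasi-likelihood test on all 10 libraries, 20 genes (0.157%) were called: 16 genes (0.125% of those tested) were higher and 4 (0.0314%) lower at D7 than at D5 at a Benjamini-Hochberg adjusted p under 0.05. The same model called 421 genes (3.3%) between D3 and D5, 288 higher (2.26%) and 133 lower (1.04%), in a step of equal length that shares the D5 libraries, and 2742 (21.5%) between D0 and D3. Which of these 2 steps had more calls depended on which D5 library was kept. Differences of at least 2-fold between D3 and D5 were found at 1920 genes (15.1%) in replicate 1 and 2500 (19.6%) in replicate 2. Between D5 and D7 they were found at 427 and 2901, so only in replicate 1 was the last step the smaller one. At an unadjusted p under 0.05 the last step had 680 genes higher (5.33%) and 844 lower (6.62%), and 7574 genes (59.4%) moved the same way in both replicates. Without D5 replicate 1, which leaves 1 library on that day, 1733 of 13010 genes (13.3%) were called, 895 higher and 838 lower. Without D5 replicate 2 the count was 31, and without the replicate block it was 0, with 810 genes at an unadjusted p under 0.05.

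A missed threshold does not show that a gene had settled, so the 95% interval of each change was used for that purpose. For 5428 genes (42.6%) the interval lay within a 2-fold change in either direction. For the remainder, a change of 2-fold or more was compatible with the data at this depth and spread.

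Most of the called increase belonged to repeated sequence. Of the 16 genes called higher, 12 were copies of a pair of sequences repeated in the genome, here family A and family B, most of them annotated as long noncoding RNAs. Members of family A had 98.4% to 99.5% identity to a called member over 1276 to 3665 bases, and those of family B 98.4% to 99.5% over 1115 to 3209 bases. RSEM divides reads among such copies by estimation, so the count of 12 is not 12 separate measurements, and the families were also summed.

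Family A had 16 tested members, of which 9 were called, and the fitted log2 changes of all 16 lay between 2.69 and 4.49. Its summed level was 187 and 27.8 CPM at D5 and 1655 and 720 CPM at D7 (replicates 1 and 2). Both D7 libraries were above both D5 libraries and above the 291 and 113 CPM of D0. The summed family rose by 3.63 on the log2 scale (SE 0.50, adjusted p = 0.0301, edgeR with families summed). Each family was built from genes already called in this comparison, so the low p of its sum follows in part from that choice. The family A member with the highest mean CPM at D7, Gm48271 on chromosome 10 (50292646 to 50296142), went from 33.6 and 6.19 CPM to 304 and 106 CPM. Tmem72 is a protein-coding gene whose transcript matches members such as Gm47486 on the opposite strand and Gm47738 on the same strand. It was called with these copies (adjusted p = 0.0344, edgeR), and its reads cannot be assigned to it with certainty.

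Family B had 5 tested members, of which 3 were called, with fitted log2 changes of 2.03 to 3.45. Its summed level was 566 and 135 CPM at D5 and 2283 and 1747 CPM at D7. The summed family rose by 2.73 (SE 0.40, adjusted p = 0.0435), with the same limit from the choice of its members. Neither family was called between D3 and D5, where the summed changes were -0.05 (adjusted p = 0.973) and 0.94 (adjusted p = 0.205). With each family counted as 1 feature, 5 features were called in the last step, 3 higher and 2 lower: both families, Dazl and the pseudogenes Gm10288 and Rpl30-ps9.

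**Figure D1:**
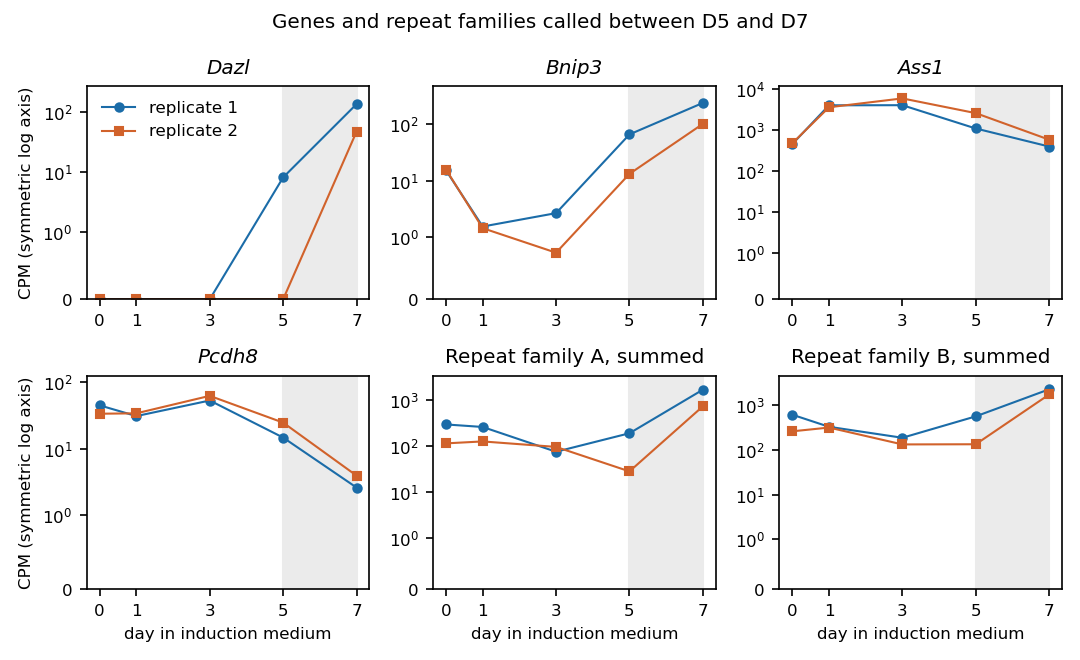
Level in CPM (symmetric log axis) of 4 called genes and of both summed repeat families on each day in the induction medium; circles and squares are the single libraries of replicates 1 and 2, and the last step is shaded. Dazl reaches 136 and 47.3 CPM at D7, family A 1655 and 720 CPM, and Ass1 falls to 391 and 574 CPM.

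Dazl, an RNA-binding protein of germ cells, rose in the last step. It had 0 CPM in all D0, D1 and D3 libraries, 8.21 and 0 CPM at D5, and 136 and 47.3 CPM at D7. The 0 of D5 replicate 2 allows up to 2.32 CPM. Both D7 libraries were above both D5 libraries, and the fitted change was 4.43 (SE 0.52, adjusted p = 0.0137). Dazl stayed called with the families summed (adjusted p = 0.0301), with the families left out (0.0387) and among protein-coding genes alone (0.0459). It was not called by DESeq2 (adjusted p = 0.864), without the replicate block (0.565) or without D7 replicate 1 (0.176).

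The other tested germline genes were fitted higher as well, but none of them passed the edgeR test. Of 37 germline genes, 18 passed the filter on low counts, and because several were silent earlier they passed it through the days on which they were high. Of these, 1 (Dazl) was called higher and 9 were higher at an unadjusted p under 0.05, none lower (5.33% and 6.62% of all genes). Limma-voom called 4 of the 18, limma-trend on TPM 3, and edgeR with no filter 6, all higher. The median log2 change was 1.39 (0.67 in replicate 1 and 1.76 in replicate 2), beside -0.01 over all genes tested. The 19 members below the filter had 139 counts in all at D5 and 577 at D7, and 18 of them had more counts at D7. The following germline genes were chosen after their values were seen. Sohlh2, a transcription factor of early germ cells, had 4.35 and 0 CPM at D5 and 41.5 and 33.5 CPM at D7 (log2 change 3.87, adjusted p = 0.0685). Tdrd12, which takes part in the piRNA pathway that silences transposons, had 24.6 and 6.19 CPM and then 49.6 and 39.4 CPM (adjusted p = 0.244). Stag3, a cohesin subunit of meiosis, had 9.18 and 6.19 CPM and then 28.3 and 21.7 CPM (adjusted p = 0.241). In each of these genes both D7 libraries exceeded both D5 libraries, as in 15 of the 18 tested germline genes and 16.4% of all genes. For members silent earlier the filter largely set that direction in advance, so the germline shares are not directly comparable with those of all genes.

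A gene of the germline slowed by a direct test. Rbmxl2, an RNA-binding protein of male germ cells, was at 45.7 and 30.9 CPM at D5 and 55.5 and 48.6 CPM at D7 (log2 change 0.44, 95% interval -0.21 to 1.10). In the step before it had risen by 5.88 (adjusted p = 0.00063), and its 2 steps differed (adjusted p = 0.0153 for the difference, edgeR). Both steps contain the D5 libraries, and no gene was called for such a difference without the replicate block or on the TPM scale.

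Genes of the 2-cell embryo were near 0 at D5 and present in both D7 libraries. Zscan4f, of a family tied to telomere upkeep in embryonic stem cells, had 0.483 and 0.773 CPM at D5 and 28.5 and 15.1 CPM at D7. Its adjusted p was 0.0588, and the pooled ratio was 45.6 (95% counting interval 15.3 to 223) from 3 counts at D5. Zscan4c, chosen after its values were seen, had 0 and 0.773 CPM at D5 and 14.8 and 9.86 CPM at D7 (adjusted p = 0.116). Of 20 such genes in the files, 7 passed the filter. The 20 together summed to 17 CPM or less in each D0, D1 and D3 library. Genes near 0 at D5 therefore passed the filter mostly through D7. With edgeR none was called. All 7 were higher at an unadjusted p under 0.05, as were 5.33% of all genes. The filter largely set that direction in advance, so the shares are not comparable. DESeq2 called 1 of them, limma-voom 3, limma-trend on TPM 3, and edgeR with no filter 7. The 13 below the filter held 13 counts at D5 and 186 at D7, with more counts at D7 in 11. Zscan4 copies are near-identical, so their split is uncertain, but every copy in the list had more counts at D7 than at D5. Zfp600, which is on the same list, had already reached 48.1 and 10.1 CPM at D5 (70.5 and 57.2 CPM at D7, adjusted p = 0.397).

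The hypoxia and glycolysis genes held the other called gene of known function that was higher. Cells switch these genes on when oxygen is low or when they depend on fermenting glucose, as pluripotent cells do. Bnip3, a mitochondrial outer membrane protein that marks mitochondria for removal, had 66.2 and 13.1 CPM at D5 and 240 and 102 CPM at D7. Both D7 libraries were above both D5 libraries, and the change was 2.18 (SE 0.38, adjusted p = 0.0481). The call rests on which features are tested: with the repeat families summed the adjusted p was 0.0953, and without the replicate block it was 0.679.

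Of 41 tested genes of this list, 1 was called, 22 were higher at an unadjusted p under 0.05 (5.33% of all genes tested were) and 1, Ldhb, was lower. In 29 of the 41, both D7 libraries were above both D5 libraries, beside 16.4% of all genes tested. The median log2 change was 0.64, with 0.56 in replicate 1 and 0.81 in replicate 2, so it was of like size in both experiments. The median was 0.55 without D5 replicate 2 and 0.89 without D5 replicate 1.

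The following members were chosen after their values were seen. Ero1l, an oxidase of the endoplasmic reticulum, had 88.7 and 46.4 CPM at D5 and 240 and 147 CPM at D7 (log2 change 1.51, adjusted p = 0.0588). Slc16a3, which exports lactate, had 99.8 and 78.1 CPM and then 253 and 180 CPM (1.28, adjusted p = 0.114). Its level had already risen between D3 and D5 (3.19, adjusted p = 0.000697). Pgk1, a glycolytic kinase, had 971 and 568 CPM and then 1584 and 1156 CPM (0.85, adjusted p = 0.235). The glucose transporter Slc2a1 had 350 and 271 CPM and then 552 and 536 CPM (0.80, adjusted p = 0.277). In these 4 genes the D7 libraries lay above the D5 libraries without overlap. Ldhb, the lactate dehydrogenase subunit of oxidative tissues, had 478 and 1628 CPM at D5 and 295 and 432 CPM at D7 (-1.47, adjusted p = 0.239). Pdk1, which restrains the entry of pyruvate into mitochondria, had 482 and 455 CPM and then 414 and 260 CPM (-0.53, 95% interval -1.09 to 0.03), so not every member of the list was higher.

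**Figure D2:**
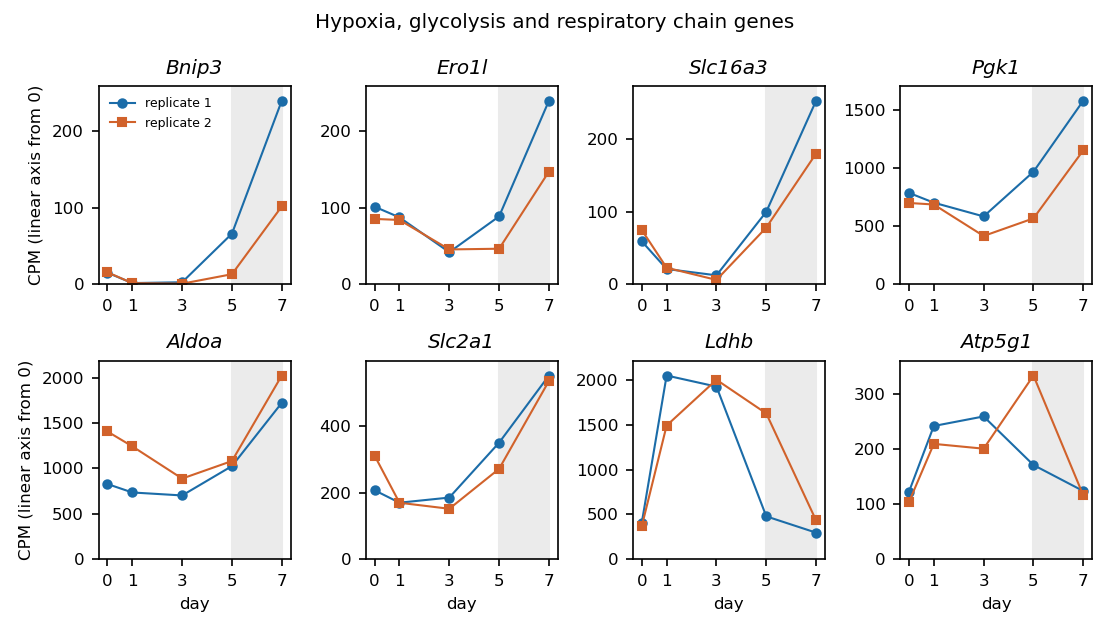
Level in CPM (linear axis from 0) on each day of 6 hypoxia and glycolysis genes, of Ldhb and of the respiratory chain gene Atp5g1; circles and squares are the single libraries of replicates 1 and 2, and the last step is shaded. Bnip3, Ero1l, Slc16a3, Pgk1, Aldoa and Slc2a1 are higher at D7 than at D5 in both replicates, Bnip3 at 240 and 102 CPM, while Ldhb and Atp5g1 are lower, with the wider step in replicate 2.

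Genes of the respiratory chain were fitted lower, with none called by edgeR and a size that rested on D5 replicate 2. All 45 tested nuclear genes of the chain had a fitted change below 0, 14 of them at an unadjusted p under 0.05, and 17 (37.8%) had an interval within 2-fold. The median log2 change was -0.48, but it was -0.16 in replicate 1 and -0.73 in replicate 2. Without D5 replicate 2 the median was -0.09, with 10 members fitted above 0, and without D5 replicate 1 it was -0.86. On the TPM scale, where the median of all genes was 0.17, 4 members were above 0. Atp5b, the catalytic subunit of ATP synthase, had 1523 and 2102 CPM at D5 and 1392 and 1586 CPM at D7 (log2 change -0.27, 95% interval -0.75 to 0.20). Of the 13 genes encoded in mitochondrial DNA, 5 were lower and 2 higher at an unadjusted p under 0.05. Among them mt-Cytb, the cytochrome b of complex III, had 4800 and 7412 CPM and then 2962 and 3462 CPM (-0.91, adjusted p = 0.308). Counts of some other members were erratic between libraries. At D5 and then D7, mt-Co3 had 2189 and 693, then 5225 and 0 counts, and mt-Atp6 2284 and 170, then 1374 and 0. For mt-Co2 they were 215 and 0, then 681 and 241. How reliably reads were assigned to these genes was not tested, which limits the numbers for this list.

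Ass1, argininosuccinate synthase, which makes arginine from citrulline, was the called gene of known function that fell furthest in CPM. It had 1072 and 2528 CPM at D5 and 391 and 574 CPM at D7, with no overlap between the days. The fitted change was -1.85 (SE 0.31, adjusted p = 0.0404). The fall undid an early rise: Ass1 had gone up by 3.36 between D0 and D3 (adjusted p = 2.11e-05), and at D7 it differed from D0 by 0.03 (adjusted p = 0.954). Pcdh8, a protocadherin of the cell surface, had 14.7 and 24.7 CPM at D5 and 2.61 and 3.94 CPM at D7 (-2.59, SE 0.41, adjusted p = 0.0299). With the repeat families summed the adjusted p was 0.0857 for Ass1 and 0.0637 for Pcdh8, and without the replicate block it was 0.565 for each.

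The remaining calls were less certain genes. Pakap, which overlaps other genes at its locus, had 0 counts in both D5 libraries. Its D7 levels were 5.87 and 21.7 CPM, or at least 17.8 times higher against a floor of 3 counts over the D5 libraries (adjusted p = 0.0344). It had been at 72.4 and 86.1 CPM at D0. The pseudogene Gm10040 had 12.6 and 0.773 CPM at D5 and 69.8 and 9.86 CPM at D7 (adjusted p = 0.0466). The pseudogene Gm10288 had 97.1 and 44.1 CPM and then 15.7 and 0.657 CPM (adjusted p = 0.0137). Rpl30-ps9, a pseudogene of a ribosomal protein gene, had 0.242 and 69.6 CPM and then 0 and 0 CPM, so its call (adjusted p = 0.00549) came from replicate 2.

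Promoter windows of the called genes were searched, on both strands, for 6 motifs: the E-box CACGTG, the TATA box TATAAA, the CCAAT box, the GC box GGGCGG, the octamer ATGCAAAT and the CRE motif TGACGTCA. No motif contains another. RefSeq windows on GRCm38.p6, from 250 bases before to 50 after a start, existed for 6 of the 20 called genes. The E-box, read by Myc and related factors, stands in 7.15% of 32851 windows, and the octamer, read by Oct factors, in 1.74%. The called genes Pcdh8, Bnip3 and Ass1, with sequence of their own, hold one of these motifs, and their windows are shown for that reason, 5′ to 3′ on the gene's strand, with the motif in capitals. The match is a description of the letters and not a measured site.
Pcdh8, chr14:79771263-79771562, minus strand: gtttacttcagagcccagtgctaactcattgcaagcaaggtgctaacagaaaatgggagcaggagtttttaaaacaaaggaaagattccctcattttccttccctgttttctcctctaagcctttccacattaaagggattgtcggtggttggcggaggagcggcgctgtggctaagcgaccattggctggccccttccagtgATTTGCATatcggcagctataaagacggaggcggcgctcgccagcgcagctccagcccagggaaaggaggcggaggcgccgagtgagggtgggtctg
Bnip3, chr7:138909457-138909756, minus strand: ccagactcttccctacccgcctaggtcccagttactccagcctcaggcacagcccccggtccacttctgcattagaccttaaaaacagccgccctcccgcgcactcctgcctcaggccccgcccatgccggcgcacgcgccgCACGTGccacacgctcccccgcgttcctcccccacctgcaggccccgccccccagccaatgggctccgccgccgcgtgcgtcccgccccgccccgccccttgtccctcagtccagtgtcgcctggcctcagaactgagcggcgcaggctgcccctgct
Ass1, chr2:31470020-31470319, plus strand: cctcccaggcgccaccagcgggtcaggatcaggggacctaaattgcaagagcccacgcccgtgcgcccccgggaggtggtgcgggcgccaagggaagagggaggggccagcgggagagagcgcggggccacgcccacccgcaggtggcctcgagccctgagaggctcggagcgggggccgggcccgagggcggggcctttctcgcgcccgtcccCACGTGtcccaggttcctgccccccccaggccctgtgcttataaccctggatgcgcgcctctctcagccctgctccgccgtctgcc
In Pcdh8, which was lower at D7, the octamer stands in its reverse complement, ATTTGCAT, 47 bases before the start. In Bnip3, which was higher, CACGTG stands 108 bases before the start, and in Ass1, which was lower, 36 bases before it. CACGTG also stands in 1 of the 5 windows of Pakap, which was higher and whose reads overlap other genes. The Pcdh8 window also holds TATAAA and CCAAT, the Bnip3 window CCAAT and GGGCGG, and the Ass1 window GGGCGG. The Dazl window holds CCAAT (37.4% of all windows) and none of the other motifs searched.

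The pluripotency network had few changes in the last step, although for most of its genes the interval was too wide to show that they had settled. Of 45 tested genes, none was called in the last step by edgeR, 5 were higher and 2 lower at an unadjusted p under 0.05, and 14 (31.1%) had intervals within 2-fold, beside 42.6% of all genes. The fit placed 25 above 0 and 20 below, with a median of 0.12. In the step before, 26 of the 45 were called higher, with a median log2 change of 2.41. The replicates differed: the last-step median was -0.09 in replicate 1 and 0.36 in replicate 2, and D5 replicate 1 stood 0.73 above D5 replicate 2. The fitted median was -0.04 without D5 replicate 2 and -0.02 without D7 replicate 2. DESeq2 called none, limma-voom 1 higher, and edgeR with no filter 3 higher and 1 lower. Without D5 replicate 1, 5 members were called higher and 2 lower (15.6%), beside 13.3% of all genes.

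Sox2, a core factor of the network, had 202 and 159 CPM at D5 and 208 and 142 CPM at D7. Its change of -0.05 had a 95% interval of -0.55 to 0.44, so it stayed within 2-fold, after a rise of 4.10 between D0 and D3 (adjusted p = 4.29e-06). Pou5f1, which encodes Oct4, had 431 and 363 CPM at D5 and 335 and 327 CPM at D7 (-0.24, interval -1.27 to 0.79). Nanog, which stabilises the network, had 236 and 93.6 CPM and then 227 and 159 CPM (0.38, interval -0.51 to 1.28). For Pou5f1 and Nanog a 2-fold change in 1 direction remained within the interval. Utf1, a chromatin factor of pluripotent cells, had 98.6 and 75 CPM and then 87.7 and 80.8 CPM (-0.04, interval -0.85 to 0.77). Klf4, Lin28a and Dnmt3b also had intervals inside 2-fold.

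Zfp42 and Dppa5a, classical markers of the naive state, slowed by a direct test. Zfp42 had 93.2 and 35.6 CPM at D5 and 104 and 55.9 CPM at D7, a change of 0.37 after one of 3.97 in the step before, and the steps differed (adjusted p = 0.0486). Dppa5a had 264 and 129 CPM and then 358 and 310 CPM, a change of 0.85 after 6.14 (adjusted p = 0.0153 for the difference). The difference between the steps was called for 7 genes (0.0549%), all with the smaller or opposite change last. By DESeq2 it was above 0, with the last step higher, for 6 genes and below 0 for 13. Because both steps contain the D5 libraries, an error in D5 enters them with opposite signs. Without the replicate block or on the TPM scale no gene was called for this difference.

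Some pluripotency genes still leaned upward without passing the test. Dnmt3l, which helps to lay down DNA methylation in germ cells and early embryos, had 22.2 and 10.1 CPM at D5 and 71.3 and 36.1 CPM at D7 (1.75, 95% interval 0.93 to 2.57, adjusted p = 0.125). Its libraries did not overlap, and the interval excludes no change before adjustment over all genes. Tdgf1, a coreceptor for Nodal, had 117 and 56.4 CPM and then 174 and 89.4 CPM (0.62, adjusted p = 0.404). Tet1, which oxidises methylated cytosine, had 197 and 27.8 CPM and then 190 and 120 CPM, so replicate 2 approached the level that replicate 1 already had. Lin28b, chosen after its values were seen, represses the let-7 microRNAs and had 7.01 and 1.55 CPM and then 22.8 and 18.4 CPM (2.31, adjusted p = 0.244). Tdh, likewise chosen, is a threonine catabolic enzyme of embryonic stem cells and had 374 and 317 CPM and then 181 and 143 CPM (-1.10, adjusted p = 0.202).

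**Figure D3:**
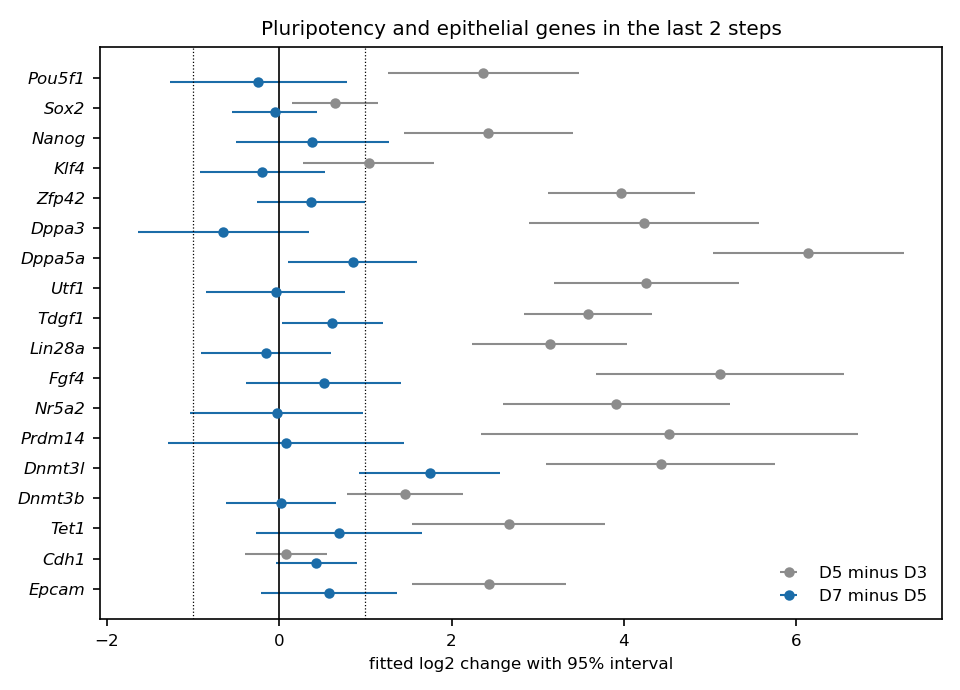
Fitted log2 change with its 95% interval for 18 pluripotency and epithelial genes, D5 minus D3 in grey and D7 minus D5 in blue; dotted lines mark a 2-fold change. The last-step points lie between -0.65 (Dppa3) and 1.75 (Dnmt3l), while the step before reaches 6.14 (Dppa5a); both steps share the D5 libraries.

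The delivered factors were fitted lower at D7, with none called by edgeR. Esrrb had 805 and 1478 CPM at D5 and 607 and 576 CPM at D7 (-0.89, adjusted p = 0.245), and Sall4 had 924 and 1399 CPM and then 754 and 744 CPM (-0.59, adjusted p = 0.41). Jdp2 had 436 and 564 CPM and then 337 and 173 CPM (-1.11, adjusted p = 0.242). In these 3 genes both D7 libraries were below both D5 libraries, as they were in 17.6% of all genes. Glis1 had 44.2 and 98.2 CPM and then 42.9 and 70.3 CPM (-0.23, interval -0.93 to 0.48). Over the 4 the median change was -0.33 in replicate 1 and -1.13 in replicate 2.

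Genes of the primitive streak, the structure from which mesoderm and endoderm arise, and targets of Wnt signalling were mostly fitted lower at D7. All 13 tested streak genes were fitted below 0, 5 of them at an unadjusted p under 0.05, with a median of -1.07 (-0.84 in replicate 1 and -0.98 in replicate 2) and no call. On the TPM scale, where the median of all genes was 0.17, 3 of them were above 0, and without D5 replicate 2 there were 4. Of 22 Wnt targets, 18 were fitted below 0 and 8 were lower at an unadjusted p under 0.05, with a median of -0.54 (-0.33 in replicate 1 and -0.49 in replicate 2). The lists share members. Sp5, a target in both lists, had 58.5 and 179 CPM at D5 and 44.8 and 82.1 CPM at D7 (-0.79, adjusted p = 0.361). Ccnd1, cyclin D1, had 159 and 287 CPM and then 88.5 and 152 CPM (-0.89, adjusted p = 0.242).

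The following were chosen after their values were seen. Mixl1, a streak homeobox factor, had 9.9 and 17.8 CPM and then 4.35 and 3.94 CPM (-1.58, adjusted p = 0.242). Bambi, a decoy receptor induced by Wnt, had 48.3 and 117 CPM and then 24.1 and 32.9 CPM (-1.44, adjusted p = 0.112). Both had D7 libraries below both D5 libraries, as had 7 of the 13 streak genes, 8 of the 22 Wnt targets and 17.6% of all genes. The streak factor T (brachyury) had 40.8 and 28.6 CPM and then 45.2 and 22.3 CPM (-0.08, interval -0.93 to 0.77), and Axin2, a feedback inhibitor of Wnt, had 94.4 and 99.7 CPM and then 71.3 and 96.6 CPM (-0.25, interval -0.79 to 0.30). These 2 stayed within 2-fold.

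The genes that reprogramming had moved first were followed into the last step, with D3 against D0, which shares no library with D7 against D5. Of 1339 genes called higher at D3, none was called higher and 1 (Ass1) lower in the last step by edgeR. At an unadjusted p under 0.05, 283 of them (21.1%) were lower, beside 6.62% of all genes, and 63 (4.7%) were higher. Their median change was -0.29, with -0.11 in replicate 1 and -0.45 in replicate 2, and 428 (32%) had intervals within 2-fold. Of 1403 genes called lower at D3, 7 were called higher and 2 lower in the last step, beside 0.125% and 0.0314% of all genes. Only 4 genes called higher lay outside the repeat families, so the 7 include repeat copies and are not all separate measurements. Among the 1403, 146 (10.4%) were higher at an unadjusted p under 0.05, beside 5.33% of all genes. Their median was 0.13, and 623 (44.4%) had intervals within 2-fold.

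Few of the genes induced most by D3 were shown to have settled in the last step. Of 684 called higher at D3 with a log2 change of 2 or more, 90 (13.2%) had intervals within 2-fold, beside 42.6% of all genes. Of 484 called lower at D3 with a log2 change of -2 or less, 97 (20%) did, so a low share was not particular to induced genes. With edgeR 163 of the 684 (23.8%) were lower and 34 (4.97%) higher at an unadjusted p under 0.05. The genes named next were picked because their intervals lay within 2-fold. Mkrn1, a ubiquitin ligase, had 402 and 285 CPM at D5 and 516 and 297 CPM at D7 (0.21, interval -0.39 to 0.82), after 24 and 29.2 CPM at D0. Hdac6, a deacetylase of tubulin, had 163 and 233 CPM and then 171 and 147 CPM (-0.28, interval -0.78 to 0.22). Mllt6, Tpcn1, C77080 and Tnfrsf19 also had intervals within 2-fold after log2 rises of 2.50 to 4.59 between D0 and D3.

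Fibroblast genes had no call in the last step, and about as many of them as of all genes were shown to have settled. None of 20 tested fibroblast markers was called in the last step by edgeR (3 lower and 0 higher at an unadjusted p under 0.05), with a median of -0.12, while 16 had been called lower between D0 and D3. Intervals lay within 2-fold for 9 of the fibroblast markers (45%), 16 of the matrix genes (43.2%) and 14 of the contractile genes (58.3%), beside 42.6% of all genes. On the TPM scale the median of the fibroblast markers was 0.12, beside 0.17 over all genes on that scale. None of 37 collagen and matrix genes (median -0.17) or 24 contractile genes (median -0.04) was called either. At an unadjusted p under 0.05 the matrix genes had 2 higher and 5 lower and the contractile genes 1 of each. The medians of the matrix and contractile genes were 0.10 and 0.22 on the TPM scale, where that of all genes was 0.17. They were also above 0 without D5 replicate 2 or D7 replicate 1. Col1a1 had 149 and 216 CPM at D5 and 108 and 228 CPM at D7 (-0.18, interval -0.78 to 0.42). Acta2, smooth muscle actin, had 15.7 and 61.1 CPM and then 19.4 and 69 CPM (0.23, interval -0.76 to 1.21), after 4578 and 4932 CPM at D0. Cdh1, the epithelial cadherin, had 160 and 110 CPM and then 202 and 160 CPM (0.43, interval -0.04 to 0.90).

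Genes of DNA replication and of the ribosome were largely settled. Of 42 DNA replication genes, 37 had intervals within 2-fold, and of 47 ribosomal protein genes, 44 did, beside 42.6% of all genes. The number of counts sets part of that share, since well-measured genes have narrower intervals. Mcm2, a subunit of the replicative helicase, had 293 and 211 CPM at D5 and 287 and 309 CPM at D7 (0.23, interval -0.33 to 0.78). The ribosomal protein median was 0.17 in replicate 1 and -0.38 in replicate 2. The fitted median was -0.13, and on the TPM scale it was 0.08, below the 0.17 of all genes on that scale. Without D5 replicate 2 all 47 were fitted above 0, with a median of 0.25. Mki67, a marker of dividing cells, had 414 and 156 CPM and then 357 and 406 CPM (0.50, interval -0.23 to 1.22), so its libraries overlapped.

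**Figure D4:**
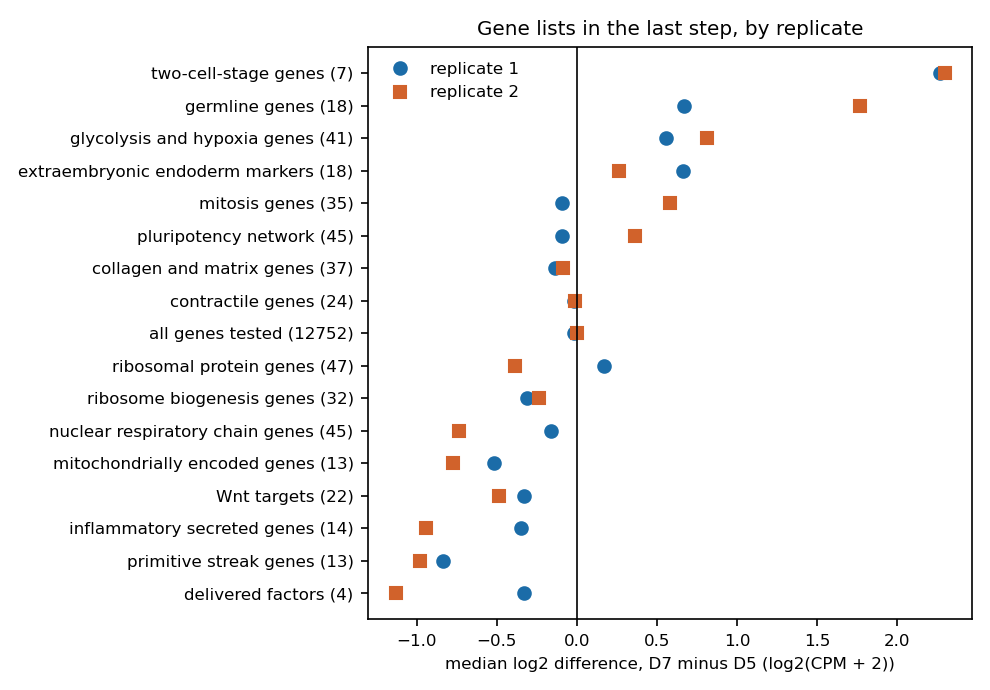
Median log2 difference between D7 and D5 (log2 of CPM plus 2) within replicate 1 (circles) and replicate 2 (squares) for 16 gene lists and for all genes tested, with the number of tested genes in brackets. The glycolysis and hypoxia genes lie at 0.56 and 0.81 in replicates 1 and 2, and the pluripotency network and the ribosomal protein genes lie on opposite sides of 0 in the replicates.

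Markers of other cell types were measured in the same libraries. Extraembryonic endoderm markers had 6 of 18 tested members higher at an unadjusted p under 0.05 and none called by edgeR, with a median of 0.54 (0.66 in replicate 1 and 0.26 in replicate 2). The fit placed 13 above 0 and 5 below. Without D7 replicate 1 the median was 0.09. Their summed level was 1981 to 3108 CPM at D5 and 2895 to 3774 CPM at D7. Col4a1, a basement membrane collagen that fibroblasts also make, had 352 and 415 CPM at D5 and 909 and 593 CPM at D7 (0.99, adjusted p = 0.226). Apoe, also on the list, did not rise in both replicates: it had 1614 and 1710 counts at D5 and 1766 and 1170 at D7, not scaled for depth. The others here were chosen after their values were seen. Lama1, a basement membrane laminin, had 214 and 74.2 CPM and then 423 and 201 CPM (1.14, adjusted p = 0.296). Cubn, an endocytic receptor of visceral endoderm, had 45.9 and 0.773 CPM and then 178 and 11.8 CPM (1.92, adjusted p = 0.355), and was thus mainly in replicate 1.

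Of 12 tested endothelial markers 8 were fitted higher and 4 lower. None was called by edgeR and 3 were higher at an unadjusted p under 0.05, with summed levels of 168 to 229 CPM at D5 and 258 to 286 CPM at D7. Pecam1, an adhesion molecule that embryonic stem cells express as well and that the pluripotency list also holds, had 34.1 and 9.28 CPM and then 69 and 67 CPM (1.66, adjusted p = 0.194). Other lists were low. The macrophage markers summed to 9.9 to 10.1 CPM at D5 and 8.54 to 14.6 CPM at D7, with Ptprc at 1 count in the 4 libraries together. The erythroid markers summed to 4.59 to 16.2 CPM and 6.53 to 9.2 CPM, with Hbb-bs and Hbb-bt at 0. The adipocyte and keratinocyte markers summed to 73.5 CPM or less in each D5 and D7 library, with Adipoq, Lep, Krt14 and Krt1 at 0. Among skeletal muscle markers Myod1 and Myog were at 0, yet Mylpf, a myosin light chain, had 172 and 102 CPM at D5 and 117 and 63.7 CPM at D7 (-0.62, interval -1.44 to 0.20). None of these lists had a called member in the last step, and their part in the results above was not tested.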

How the data were processed

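Messenger RNA of 10 libraries (D0, D1, D3, D5 and D7, 2 each) was sequenced on a NextSeq 500. Per the labels, each sample lists 2 library kits, and the kit used for each library is not told. Per the submitters' processing notes, the tools were RSEM, Bowtie2 and bcl2fastq, on mm10. Their versions, the annotation release and strand use were "not given in the sources used here". As stated per the file headers, the authors' files are RSEM gene tables: the deposited expected counts are unnormalised estimates, the deposited TPM values served 1 alternative, and no deposited FPKM value was used. Names and coordinates came from GENCODE M21 on GRCm38, which matched 54723 of 54752 genes. Genes without a name took at most 0.00179% of a library.

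Rounded expected counts went into edgeR 4.0.16 (F test by quasi-likelihood, TMM, filter with a minimum count of 10, R 4.3.3). All 10 libraries were fitted in 1 model with terms for day and replicate number, which pools the spread over days. SEs are the size of the log2 change over the root of F, and 95% intervals use the fit's degrees of freedom. Adjusted p-values are Benjamini-Hochberg over all 12752 genes tested. CPM values are edgeR's, in the order replicate 1, replicate 2. Within-replicate differences and the 2-fold differences between libraries are of log2(CPM + 2), which understates changes of low genes. Replicates differed by more than sampling noise (chi-square per gene 23 for D5 and 9.36 for D7). Deviations of same-numbered libraries (log2 CPM, prior count of 2) correlated between every pair of days (0.273 to 0.436), and the series text gives 2 independent experiments, so the numbers were taken to pair the libraries. Fragment length splits by number too, and its part in these correlations was not tested.

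Repeat families were found by aligning transcripts of called genes with each other and with other tested transcripts (at least 1000 bases and 95% identity, a minimum chosen after seeing the data). Counting intervals and floors of 3 counts cover counting error only: there were no molecular identifiers, so reads are not independent molecules. The members, gene lists and named genes were chosen with earlier results of these data known. Named genes were a panel of 31, the called genes with the largest change, the called or else the 2 most abundant members of each list, and the 8 most abundant settled genes among those called higher at D3. Genes outside that rule are said to be chosen after their values were seen. Some results are not reported here. The script was tested on simulated data. Alternatives were scaling, filters, DESeq2 1.42.0, limma-voom (limma 3.58.1), TPM with a pseudocount of 1, thinning, no block, 4 libraries alone, each library left out, and, chosen after seeing the data, families summed or left out and protein-coding genes alone.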

Additional observations from a re-analysis of the deposited data

Results flagged for a closer look

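The change from D5 to D7 differed from the change from D3 to D5 for 7 genes, by a test of that difference in the edgeR fit (all with a lower last step). They were Zfp42 (difference -3.60, adjusted p = 0.0486), Dppa5a (-5.29), Rbmxl2 (-5.44), Mylpf (-5.43), Gm37697 (-4.10) and the pseudogenes Gm10288 (-5.35, all adjusted p = 0.0153) and Rpl30-ps9 (-13.85, adjusted p = 0.00274). Gm37697 had 265 and 54.1 CPM at D5 and 230 and 84.1 CPM at D7. The direction was not the same in every setting. DESeq2 called 6 genes with a higher last step and 13 with a lower one, and without D5 replicate 1 most such calls had a higher last step. The number called also changed with each D5 or D7 library left out.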

How the results depend on the processing

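The numbers of called genes depended on the settings. In the last step, 16 genes were called higher and 4 lower by edgeR. Without the replicate block the counts were 0 and 0 (810 genes at an unadjusted p under 0.05). They were 80 and 24 with the 4 libraries alone, 223 and 157 with no filter, 36 and 36 with DESeq2, 38 higher with limma-voom, and 25 higher on the TPM scale. With repeat families summed they were 3 and 2, with families left out 1 and 2, and with protein-coding genes alone 1 and 0. Leaving out 1 library gave 8 to 895 higher and 1 to 838 lower, with the top values without D5 replicate 1. A lone D5 library is assumed to vary like the other groups. Counts moved by over 1.5 times also without D0 replicate 1 (10 higher), D5 replicate 2 (27 higher), D7 replicate 1 (8 and 1), D7 replicate 2 (10 and 1) and D3 replicate 1 or 2 (2 lower each). Stricter filtering, thinning, RLE and upper-quartile scaling gave counts within 1.5 times of those reported.

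Between D3 and D5, 421 genes were called, 9 without the block, 1054 with no filter, 792 with limma-voom, 123 on the TPM scale and 67 to 1635 with 1 library left out (67 without D3 replicate 2, 1635 without D5 replicate 2). Between D0 and D3, 2742 were called, 1549 without the block and 1276 to 3865 with 1 library left out. The difference between the last 2 steps was called for 7 genes, 0 without the block and on the TPM scale, 147 with no filter, 19 with DESeq2, 11 with limma-voom, 3 among protein-coding genes and 0 to 273 with 1 library left out.

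On the TPM scale the median of all genes moved by 0.17, so directions there are relative to that shift. No call of the 189 named genes turned its direction under the alternatives run. Without D5 replicate 1, 64 of them became called, and without the block 20 lost their call. Depth limits low genes: 3 counts are 0.725 and 2.32 CPM at D5.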

Other observations

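Imprinted genes, expressed from 1 parental copy, had 16 of 23 tested members fitted higher at D7 and 7 lower, with none called by edgeR (7 higher and 2 lower at an unadjusted p under 0.05, medians of 0.10 and 0.19 in replicates 1 and 2). DESeq2 called 1 higher and 1 lower. The following were chosen after their values were seen. The noncoding RNA Meg3 had 120 and 86.6 CPM at D5 and 191 and 242 CPM at D7 (log2 change 1.12, adjusted p = 0.196). Mest had 319 and 196 CPM and then 419 and 560 CPM (0.92, adjusted p = 0.242), while Peg3 had 275 and 74.2 CPM and then 284 and 468 CPM, a change found in replicate 2. Cdkn1c, a cell cycle inhibitor named by the rule, had 479 and 1208 CPM and then 336 and 332 CPM (-1.31, adjusted p = 0.241). H19 had 4005 and 13541 CPM and then 4108 and 7850 CPM (-0.48, adjusted p = 0.614).

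Of 32 ribosome biogenesis genes, 29 were fitted lower and 5 were lower at an unadjusted p under 0.05, with none called by edgeR and medians of -0.31 and -0.24 in replicates 1 and 2. On the TPM scale, where the median of all genes was 0.17, 11 were above 0. Nhp2, chosen after its values were seen, binds guide RNAs that modify ribosomal RNA and had 121 and 216 CPM at D5 and 84.2 and 90 CPM at D7 (-0.90, adjusted p = 0.222). Of 31 histone lysine methylases and demethylases, 27 were fitted higher, with medians of -0.06 in replicate 1 and 0.78 in replicate 2. Without D5 replicate 2, 12 of them were above 0. Cxcl12, a chemokine chosen after its values were seen, had 15.9 and 25.5 CPM and then 37.9 and 102 CPM (1.64, adjusted p = 0.0615), against 178 and 224 CPM at D0.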
